A study of Bos taurus with 6 samples.

Results

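The genes described here encode the inhibin and activin subunits, their binding proteins and receptors, and anti-Müllerian hormone (AMH) with its receptor. They were taken by symbol from a named list of 10: INHA, INHBA, INHBB, FST, FSTL3, ACVR1B, ACVR2A, ACVR2B, AMH and AMHR2. All 10 had a probe on the array, out of 15229 named genes, through 12 probes in all. The symbols come from the platform annotation, and all 10 matched a RefSeq gene. The list was chosen by name, with earlier results of these data known.

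Inhibins and activins are dimers of the transforming growth factor beta superfamily that share subunits. An alpha subunit joined to a beta subunit makes an inhibin, and beta subunits joined to each other make an activin. Activins bind a type II receptor, which then activates a type I receptor and the SMAD proteins behind it. Follistatin and its relative FSTL3 bind activin and keep it from its receptors. Granulosa cells and the cumulus cells derived from them are known as sources of inhibin, activin and AMH in the follicle.

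The cells were cumulus cells, the somatic cells that enclose the oocyte, from cumulus-oocyte complexes of Holstein cows whose ovaries came from a slaughterhouse. Treated complexes were matured with FID, which stands for forskolin at 100 µM, IBMX at 500 µM and dipyridamole at 50 µM. Forskolin is an activator of adenylyl cyclase, and the other agents block the phosphodiesterases that break cyclic AMP down. Control complexes were matured without it, and both conditions shared a medium with serum, estradiol, pyruvate and gentamicin. The protocol gives 22 to 24 h of maturation, whereas the control samples are named for 6 h, so time and treatment cannot be told apart here if the conditions differed in time. The number of animals or complexes pooled per replicate is not stated in the labels. The arrays ask how transcripts of cumulus cells differ after these agents, and cyclic AMP itself was not measured. RNA of both conditions was amplified and hybridised together on 6 two-colour arrays, as 3 biological replicates numbered 1, 2 and 4, each repeated with the dyes exchanged. The number of biological replicates, 3, limits the precision of each value, since the arrays with exchanged dyes repeat the same RNA. On bulk RNA, fewer cells of a type and less RNA per cell cannot be told apart.

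Signals above the negative control spots were found for 51.2% to 84.9% of probes per array in FID and 58.4% to 86.6% in control. A probe was tested when it exceeded the 95th percentile of the negative controls in at least 1 condition on at least 4 of 6 arrays, which 32192 of 43794 probes did. Of the 10 genes, 9 passed this filter, and 8 of these exceeded the negative controls on each of the 6 arrays in FID and in control. ACVR2B did so in FID on 5 of 6 arrays, and AMHR2 was not tested. Ratios are given as log2 of FID over control, as the mean of 3 replicates with the standard error (SE) of limma's moderated fit. Levels are normalized log2 intensities averaged over both dyes, and they can be compared between samples for a gene but not between genes.

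Across these genes FID went with higher signals of INHBB and AMH, each about 3-fold, and with lower signals of FST, FSTL3 and ACVR1B. INHA and INHBA lay at or near the detector ceiling, where a difference is compressed. None of these differences passed limma's test at an adjusted p under 0.05. The test called 0 of 9 genes, against 1.72% of all tested probes, 0.764% as higher and 0.96% as lower. Among the 12381 tested named genes, each on its brightest probe like the 9, it called 2.35%. At an adjusted p under 0.1 there were 4 of 9, INHBB, AMH, FST and ACVR1B, against 10.4% of tested probes. At an unadjusted p under 0.05 there were 6 of 9, against 23.5% of tested probes and 3537 of the 12381 named genes. A further fit, called the replicate block fit, took the 6 arrays singly, with a term for the dye orientation and replicate as a random effect. It called 5 of 9, against 16.1% of all tested probes and 20.7% of the named genes. Of the 5 genes, 2 were higher, against 6.61% of tested probes, and 3 were lower, against 9.5%. That fit counts the repeated arrays of a replicate towards its degrees of freedom, although the replicates are still 3. The sign was the same on 6 of 6 arrays for 8 of 9 genes, against 22.6% of tested probes and 3449 of the 12381 named genes. It was positive for 5, against 9.82%, and negative for 3, against 12.8%. The levels in the 3 FID replicates did not overlap those in the 3 controls for 6 of 9, against 26.6% of tested probes and 3692 of the 12381 named genes.

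**Figure D1:**
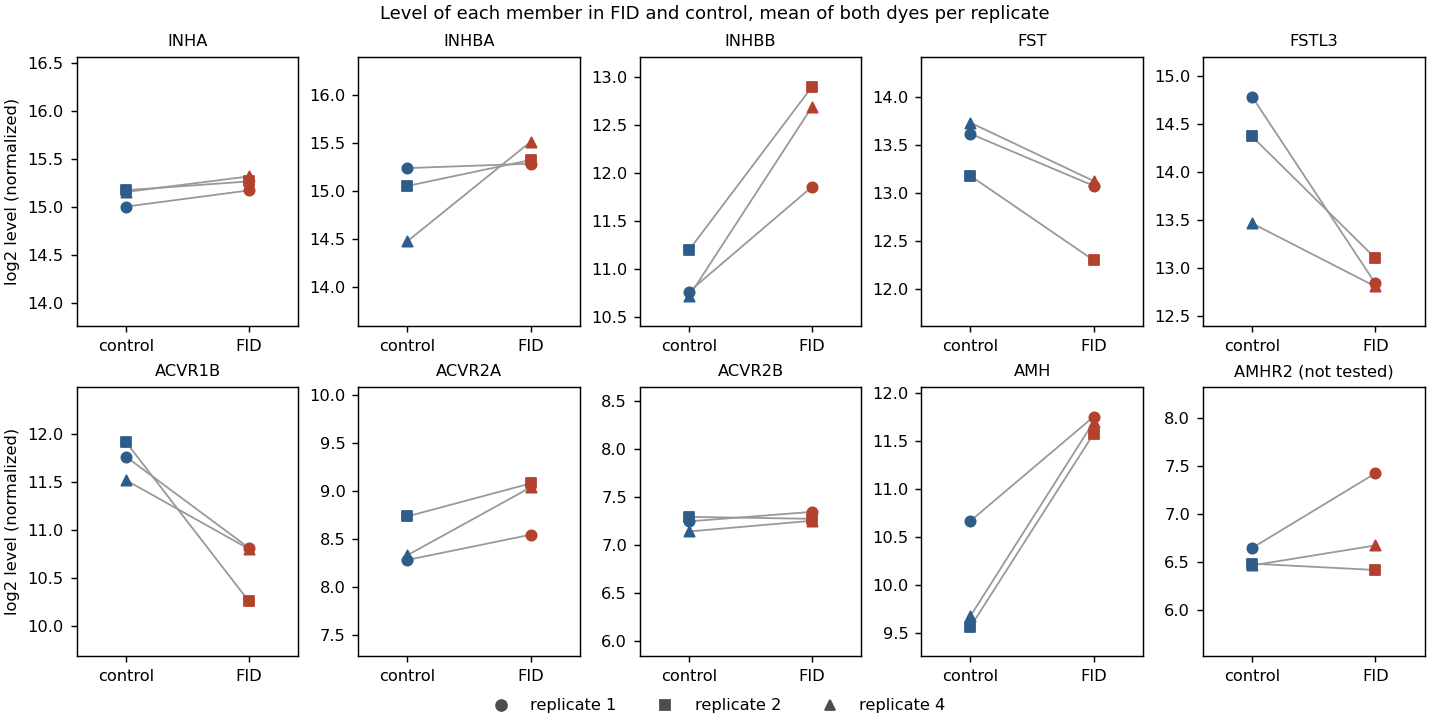
Normalized log2 level of each of the 10 genes (vertical axis, own range in each panel) in control (blue) and FID (red). Each point is the mean of both dyes in 1 replicate, and lines join the conditions of a replicate. INHBB and AMH were higher in FID in all 3 replicates, and FST, FSTL3 and ACVR1B were lower.

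INHBB encodes the beta B subunit, which forms activin B or, with the alpha subunit, inhibin B. Its level in control was 10.76, 11.20 and 10.72 in replicates 1, 2 and 4, and in FID 11.86, 12.90 and 12.69. All 3 FID values lay above all 3 control values. The ratio was 1.09, 1.70 and 1.98 in these replicates. The mean was 1.59 ± 0.20 (SE, n = 3), a 3.01-fold difference with a 95% interval from 2.02 to 4.50, and limma's adjusted p was 0.0563. Only 1.80% of tested probes had a ratio of larger size. In the replicate block fit the adjusted p was 0.00143. INHBB was above background on every array in both conditions and was never saturated. Raw pixel means were 2650 to 8948 (median 5597) in FID and 1677 to 3071 (median 1988) in control.

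The size of the INHBB ratio went with the dye. It was 0.59, 1.20 and 1.42 in replicates 1, 2 and 4 with FID in Cy5, and 1.60, 2.21 and 2.54 with FID in Cy3. FID was higher in both orientations and in every replicate. The mean was 1.07 in the first orientation and 2.11 in the second. The difference between them, -1.04 ± 0.17, had an adjusted p of 0.00633 in the replicate block fit, where 23% of all tested probes also passed for the dye. INHBB was the only one of the 9 genes, each on its brightest probe, to pass for the dye.

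**Figure D2:**
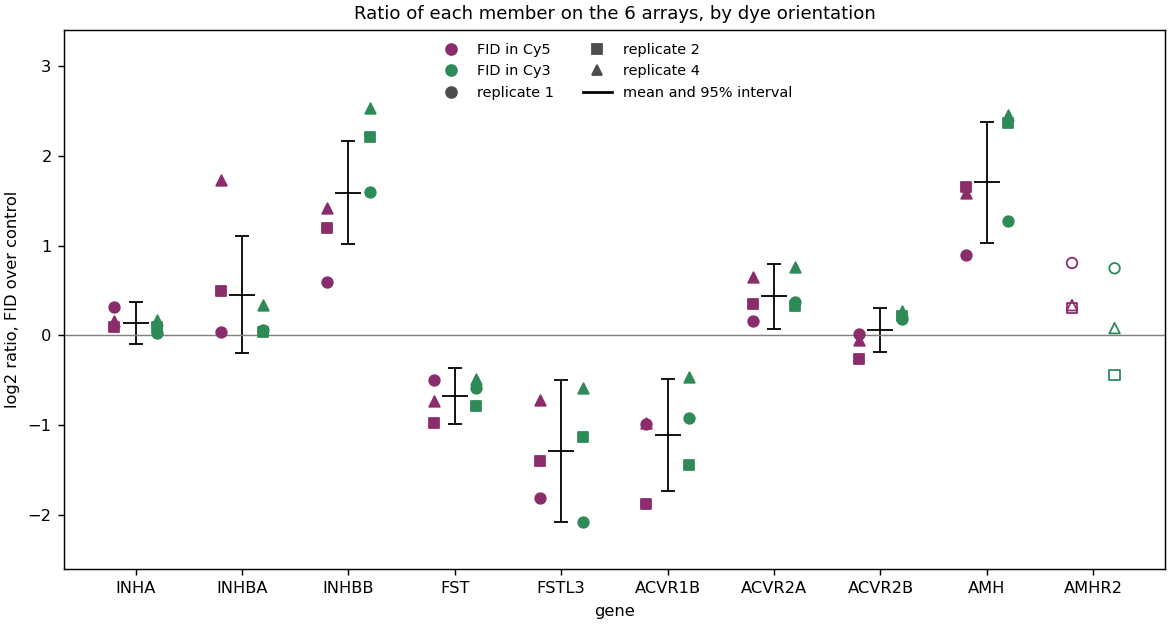
Log2 ratio of FID over control (vertical axis) for each gene on the 6 arrays, by dye orientation (colour) and replicate (symbol). The bar marks the mean of 3 replicates with its 95% interval, and open symbols mark AMHR2, which was not tested. INHBB and AMH lie above 0 on every array, and FST, FSTL3 and ACVR1B below it.

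The other beta subunit, beta A, is encoded by INHBA and forms activin A or inhibin A. Its probe lay at the ceiling of the detector. The pixel median of the spot, which cannot exceed 65535, reached that value in FID on 4 of 6 arrays and in control on 1 of 6. In Cy5 it was 65535 in FID in all 3 replicates, and 64191, 65535 and 63420 in control in replicates 1, 2 and 4. In Cy3 the FID values were 64630, 65283 and 65535 in the same order. Only the control spots in Cy3 were clear of the ceiling, at 46054, 32799 and 17671. Within Cy3, where the conditions stand on different arrays, all 3 FID values lay above all 3 control values. These readings were not normalized. In each replicate the median Cy3 signal of the array was also higher for FID, at 289, 294 and 244 against 255, 222 and 190. A spot at the ceiling reads lower than its true brightness, so a ratio that sets it against an unsaturated spot is compressed.

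INHBA levels were 15.24, 15.05 and 14.48 in control and 15.28, 15.32 and 15.51 in FID in replicates 1, 2 and 4. These levels did not overlap, but the gap in replicate 1 was small. The ratio was 0.05, 0.27 and 1.04. The mean was 0.45 ± 0.23 (SE, n = 3, adjusted p = 0.353), and it was 0.16 without replicate 4. The 95% interval of the fold ran from 0.870 to 2.15, and neither this fit nor the replicate block fit (adjusted p = 0.384) called it. The largest single ratio, 1.74, came from replicate 4 with FID in Cy5, where the control spot was darkest. The same replicate gave 0.34 with the dyes exchanged and both spots at or near the ceiling. The mean ratio was 0.76 with FID in Cy5 and 0.14 with FID in Cy3. Only 1 array had both INHBA spots below the ceiling, that of replicate 1 with FID in Cy3, with a ratio of 0.06. INHBA therefore had no test with saturated spots left out. On that array the pixel medians, 64630 in FID and 64191 in control, were still near the ceiling, so its ratio may be compressed too.

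**Figure D3:**
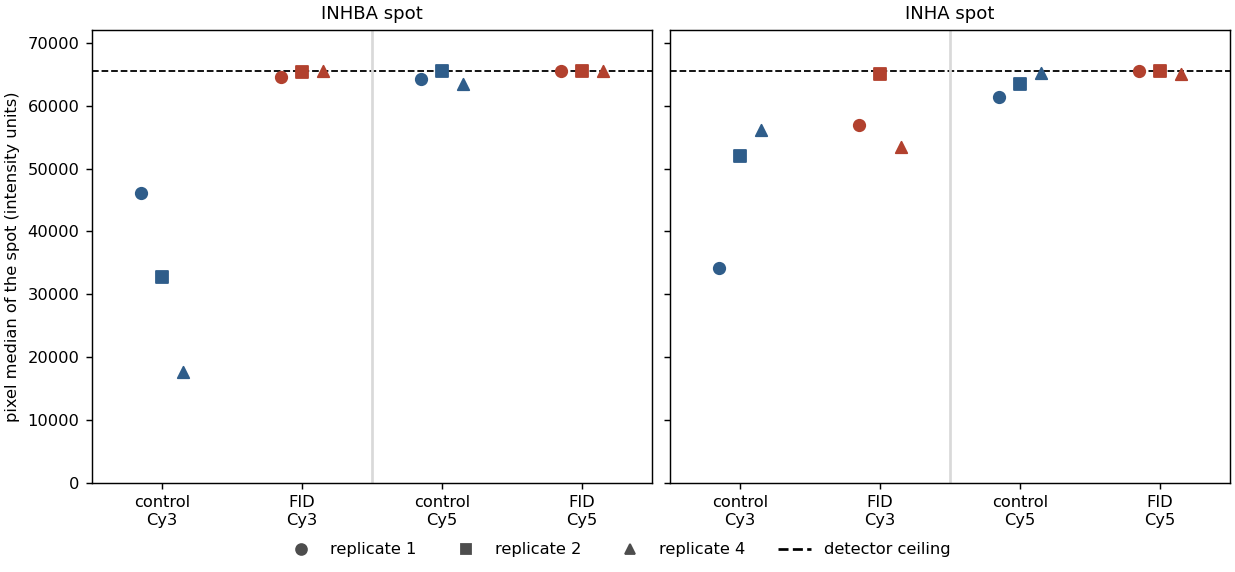
Pixel median of the INHBA spot (left) and the INHA spot (right), in intensity units, by dye and condition, with 1 point per replicate. The dashed line is the detector ceiling of 65535. For INHBA all readings except control in Cy3 lie between 63420 and the ceiling.

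INHA encodes the alpha subunit, which is found in inhibins and not in activins. The level was 15.01, 15.18 and 15.16 in control and 15.18, 15.27 and 15.32 in FID in replicates 1, 2 and 4. The conditions overlapped narrowly, FID in replicate 1 (15.175) lying below control in replicate 2 (15.177). Its ratio was 0.17, 0.09 and 0.16, with a mean of 0.14 ± 0.08 (SE, n = 3, adjusted p = 0.417), and the 95% interval of the fold ran from 0.937 to 1.30. The ratio was above 0 on 6 of 6 arrays, from 0.02 to 0.32. INHA was also very bright: its pixel median reached 65535 in FID on 2 of 6 arrays and in control on 0. In Cy5 the medians were 65535, 65535 and 64982 in FID and 61401, 63430 and 65236 in control in replicates 1, 2 and 4. The control in Cy5 was thus near the ceiling too. In Cy3 the medians were 56947, 64983 and 53392 in FID and 34179, 51951 and 56129 in control. The interval therefore holds for a probe near the ceiling, where differences are compressed.

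FST encodes follistatin. Its level in control was 13.62, 13.18 and 13.73 in replicates 1, 2 and 4, and in FID 13.07, 12.30 and 13.12. Every FID value lay below every control value. The ratio was -0.54, -0.88 and -0.61, with a mean of -0.68 ± 0.11 (SE, n = 3), 1.60-fold lower in FID. The adjusted p was 0.0725, and 0.0113 in the replicate block fit. FST was unsaturated and lower on 6 of 6 arrays, from -0.97 to -0.48, and the orientations gave -0.74 and -0.62 with FID in Cy5 and in Cy3.

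FSTL3 is the follistatin-like binding protein. In control its level was 14.79, 14.37 and 13.47, and in FID 12.84, 13.10 and 12.81. The FID values were close together and lay below all controls, while the controls spread more widely. The ratio was -1.94, -1.27 and -0.66 in replicates 1, 2 and 4, so the replicates differed more for this gene than for FST. The mean was -1.29 ± 0.28 (SE, n = 3), 2.45-fold lower, with an adjusted p of 0.102 and of 0.00943 in the replicate block fit. Both orientations gave nearly the same mean, -1.31 and -1.27. The FSTL3 ratio was below the FST ratio by unequal amounts, the difference being -1.40, -0.39 and -0.05 in replicates 1, 2 and 4 (mean -0.61 ± 0.70, SD, n = 3), which is within the spread between replicates. Within replicates, the INHBB ratio exceeded the FST ratio by 1.64, 2.58 and 2.58.

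Among the receptors, ACVR1B, the type I receptor of activins also known as ALK4, had the lower signal in FID. Its control level was 11.76, 11.91 and 11.52 in replicates 1, 2 and 4, and its FID level 10.81, 10.25 and 10.80. The conditions did not overlap. The ratio was -0.95, -1.66 and -0.72, with a mean of -1.11 ± 0.22 (SE, n = 3), 2.16-fold lower. The adjusted p was 0.0910, and 0.00791 in the replicate block fit. The ratio was below 0 on 6 of 6 arrays, from -1.88 to -0.46. Replicate 2 gave the largest gap in both orientations, and without it the mean was -0.83.

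The type II receptors did not show this pattern. ACVR2A, on its brightest probe of 3, had a level of 8.29, 8.74 and 8.33 in control and 8.55, 9.08 and 9.04 in FID, and the conditions overlapped. Its ratio of 0.26, 0.34 and 0.71 gave a mean of 0.44 ± 0.13 (SE, n = 3, adjusted p = 0.157, and 0.0595 in the replicate block fit). The other probes of ACVR2A disagreed in sign, with -0.21 ± 0.20 and 0.25 ± 0.10 (SE, adjusted p = 0.631 and 0.266). Both were positive on 3 of 6 arrays, the latter on those with FID in Cy3, and each was above background on at most 5 of 6 arrays in either condition. ACVR2B had 0.06 ± 0.09 (adjusted p = 0.757), and the 95% interval of its fold ran from 0.881 to 1.24. Its levels of 7.14 to 7.29 in control and 7.25 to 7.34 in FID overlapped, on a dim probe. The difference between the ACVR1B and ACVR2A ratios was -1.21, -2.01 and -1.42 in replicates 1, 2 and 4, below 0 in each.

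AMH is a hormone of granulosa and Sertoli cells. Its level in control was 10.67, 9.57 and 9.68 in replicates 1, 2 and 4, and in FID 11.75, 11.58 and 11.70. The FID values were close together and all lay above the controls, of which replicate 1 was the highest. Raw pixel means were 2354 to 4242 (median 3421) in FID and 714 to 1937 (median 1029) in control. The ratio was 1.09, 2.01 and 2.02. The mean of 1.71 ± 0.24 (SE, n = 3) was a 3.26-fold difference, with a 95% interval from 2.05 to 5.20 and an adjusted p of 0.0603. In the replicate block fit the adjusted p was 0.00209. With FID in Cy5 the mean was 1.38, and with FID in Cy3 it was 2.03, positive on all 6 arrays from 0.90 to 2.46.

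AMHR2 encodes the type II receptor of AMH. Its probe exceeded the negative controls in FID on 2 of 6 arrays, both of replicate 1, and in control on 0 of 6. The pixel means were 236 and 313 in FID on those arrays, and 139 to 196 on the other arrays in FID. In control they were 97.4 to 194. The ratio was 0.78, -0.07 and 0.21 in replicates 1, 2 and 4, so no direction was shared by the replicates.

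INHBB, AMH, FST, FSTL3 and ACVR1B, the 5 largest differences, kept their sign in 18 of 18 alternatives. Many of these could not have reversed it. Each gene is read by a single, never saturated probe. Aquantile scaling, the filters, the replicate block fit, leaving out saturated spots and averaging probes therefore left the ratio unchanged. With the same sign on 6 of 6 arrays, leaving out a replicate or an orientation could not reverse it either. INHBB passed in 5 of the 18 alternatives and AMH in 6, while FST, FSTL3 and ACVR1B each passed in 1. In the authors' deposited table of log2 ratios, read as FID over control, the mean of the 6 arrays was 1.56 for INHBB, 1.67 for AMH, -0.75 for FST, -1.36 for FSTL3 and -1.11 for ACVR1B.

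**Figure D4:**
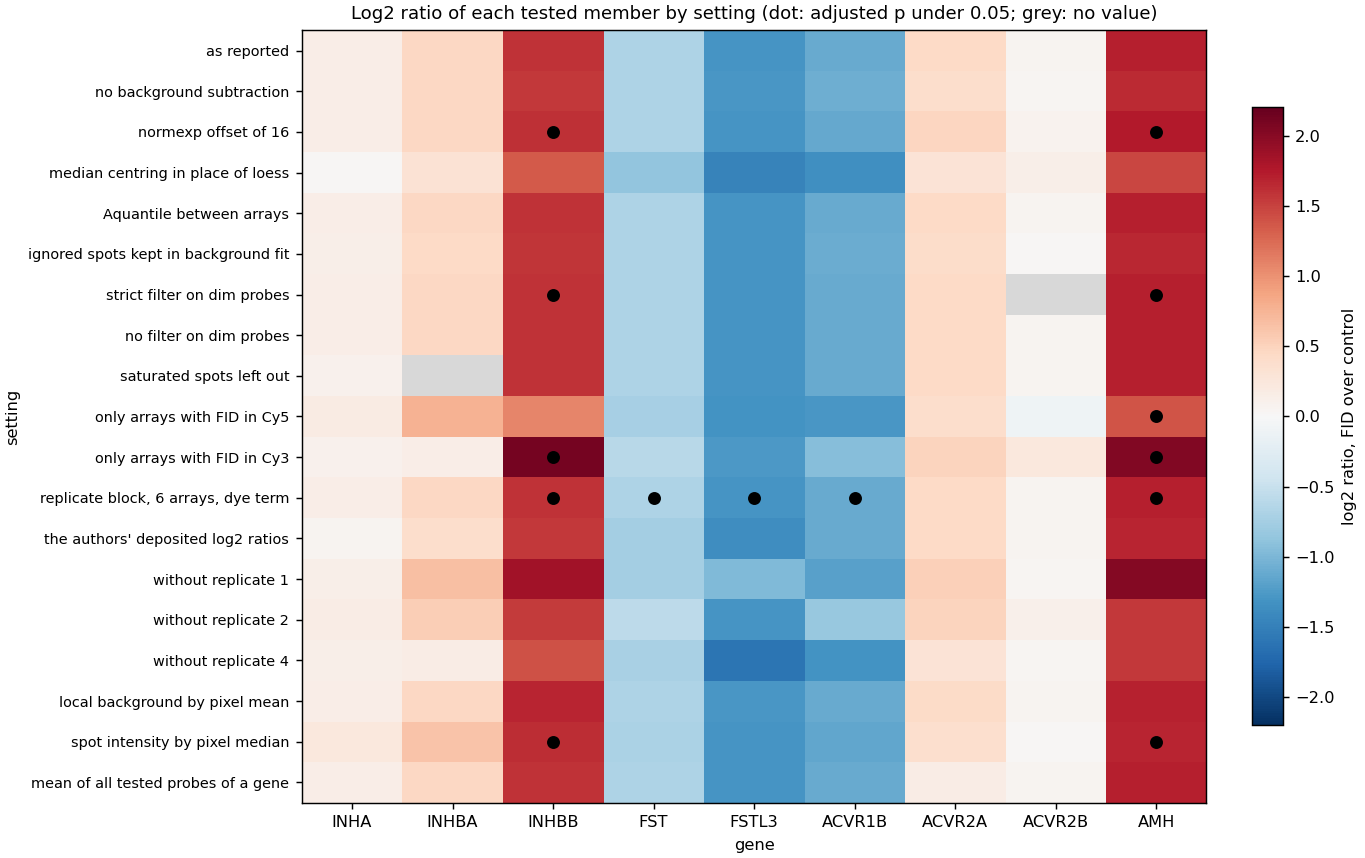
Log2 ratio of FID over control (colour) for the 9 tested genes (columns) as reported and under 18 other settings (rows). A black dot marks an adjusted p under 0.05 and grey marks a setting without a value. INHBB and AMH carry dots in several rows, and FST, FSTL3 and ACVR1B only in the replicate block fit.

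Over the 6 arrays, the named gene whose ratios lay nearest to those of INHBB was AMH, with a Euclidean distance of 0.68 log2 units among 12310 candidates. LOC788724 at 0.75, and SYVN1, a ubiquitin ligase of the endoplasmic reticulum, at 0.76 came next. Their mean ratios were 1.42 ± 0.23 and 1.47 ± 0.21 (SE, n = 3, adjusted p = 0.0722 and 0.0615). The AMH ratio differed from the INHBB ratio by -0.01, 0.31 and 0.05 in replicates 1, 2 and 4. For INHA the nearest were WBP2, a WW domain binding protein, at 0.15, PYGM, a glycogen phosphorylase, at 0.18 and LOC783541 at 0.18. All these genes share the same 6 arrays and dyes, so the distances are a description and not a test.

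Other genes of the pathway were taken from 7 lists with 65 genes, of which 63 had a probe and 55 were tested. Of the tested genes, 3 also stand in the marker lists. The test called 1 of the 55 as lower and 0 as higher, against 2.35% of all named genes, and the replicate block fit called 9 higher and 9 lower, 18 of 55 against 20.7% of all named genes. The median ratio of the 55 was 0.03, and that of all named genes 0.01. The called gene was TGFB2, a ligand of the transforming growth factor beta receptors, which was lower in FID (adjusted p = 0.0476 in limma) and was not well above background there on any of the 6 arrays, while it was in control on all 6. Its level was 7.84, 8.73 and 8.32 in control in replicates 1, 2 and 4. Since FID was not well above background, the fold was taken from the mean control level against a floor in FID. The floor was the lowest signal above background or the probe's own, whichever was higher on each array. By this measure TGFB2 was 3.37-fold lower, which is a point value and not a lower limit. The log2 ratio of TGFB2 was -1.79 ± 0.10 (SE, n = 3), and it ran from -2.32 to -1.29 over 17 alternatives. Its ratio was negative on 6 of 6 arrays. It was the only call among 11 tested ligands of the superfamily, whose median was 0.29.

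In the other lists no gene passed over the 3 replicates. Among 6 tested receptors and co-receptors, BAMBI, a decoy receptor that dampens activin and transforming growth factor beta signals, had the lowest p, with -1.02 ± 0.15 (SE, adjusted p = 0.0622). It was the only one of the 6 called in the replicate block fit (adjusted p = 0.00776). Of 11 tested SMADs and their regulators, 5 were called in that fit, 3 higher and 2 lower, against the same 20.7%. SMAD6, an inhibitory SMAD, had the lowest p of these, with 1.05 ± 0.15 (SE, adjusted p = 0.0626, and 0.00373 in the replicate block fit). The SMAD6 mean went with the dye, at 0.48 with FID in Cy5 and 1.62 with FID in Cy3.

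Partners of AMH signalling gave a median of -0.18 over 7 genes, with ID2, a target of the SMADs used by AMH, at 0.51 ± 0.11 (SE, adjusted p = 0.09996). Extracellular antagonists gave a median of -0.21 over 8, with NOG, noggin, at -0.63 ± 0.13 (SE, adjusted p = 0.0973). The convertases that cleave the precursors of these ligands gave -0.05 over 4, with PCSK5 at 0.15 ± 0.13 (SE, adjusted p = 0.589). In the list of transcription factors of the inhibin and AMH promoters, WT1, a zinc finger factor of gonadal cells, had 1.15 ± 0.16 (SE, adjusted p = 0.0589). Of the 3 tested probes of WT1, 1 had the opposite sign. The replicate block fit called 5 of the 8 tested factors, 3 higher and 2 lower, where 20.7% of named genes were called.

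**Figure D5:**
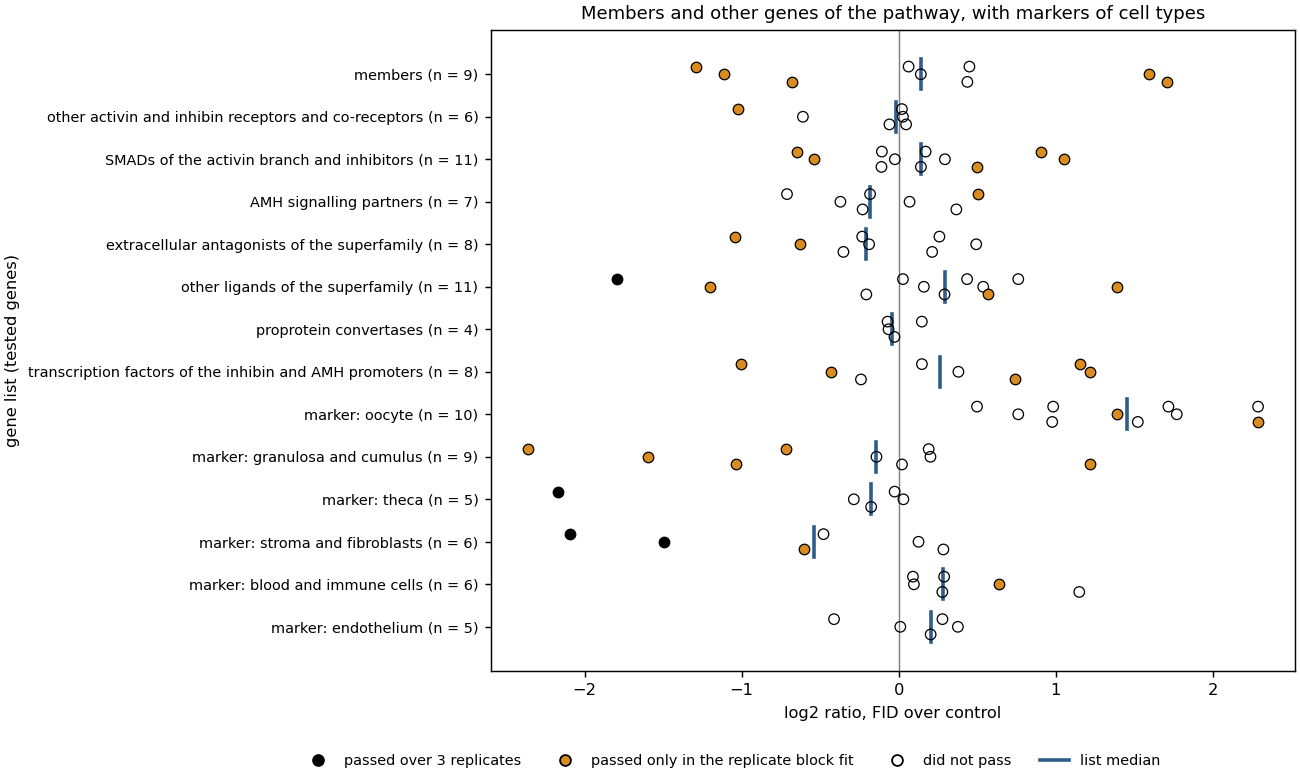
Mean log2 ratio of FID over control (horizontal axis) for each tested gene of the family (members), of 7 pathway lists and of 6 marker lists, 1 point per gene. Filled black points passed the test over 3 replicates and orange points passed only in the replicate block fit, open points did not pass, and blue bars are list medians, 0.14 for the family.

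Markers of the labelled cell type were present. FSHR, the receptor of follicle-stimulating hormone, and CYP19A1, aromatase, exceeded background on 6 of 6 arrays in both conditions, and 9 of 10 granulosa and cumulus markers were tested. Their median ratio was -0.14, with 0 called over the replicates, and 1 higher and 4 lower in the replicate block fit. Over all named genes those tests called 2.35% and 20.7%, which applies to each marker list. Oocyte markers were present too. All 10 were tested, and all 10 had a ratio above 0, with 0 called and 2 called as higher in the replicate block fit. Their median was 1.17, 2.91 and 0.17 in replicates 1, 2 and 4, and the mean level over the list was 7.19 to 10.78 in FID and 6.91 to 8.52 in control. GDF9 and BMP15, growth factors of the oocyte, had 1.39 ± 0.47 and 0.76 ± 0.38 (SE, n = 3). In the same order of replicates the ratio was 1.09, 1.70 and 1.98 for INHBB, 1.09, 2.01 and 2.02 for AMH, -0.54, -0.88 and -0.61 for FST, -1.94, -1.27 and -0.66 for FSTL3 and -0.95, -1.66 and -0.72 for ACVR1B. FST and ACVR1B were lowest in replicate 2, where the oocyte markers were highest. FSTL3 was lowest in replicate 1, and the INHBB ratio was highest in replicate 4, where the oocyte median was 0.17. The AMH ratio was nearly the same in replicates 2 and 4. Without replicate 2 the mean ratio was 1.54 for INHBB, 1.55 for AMH, -0.57 for FST, -1.30 for FSTL3 and -0.83 for ACVR1B.

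Stroma and fibroblast markers had a median of -0.54 over 6 genes, and the replicate block fit called 3, all lower, against the same 20.7%. PDGFRA, a growth factor receptor, and LUM, a matrix proteoglycan, were the genes called over the 3 replicates, both lower, with -2.09 ± 0.14 and -1.49 ± 0.14 (SE, n = 3). The collagens COL3A1 and COL1A2, named after their values were seen, had 0.28 ± 0.52 and 0.13 ± 0.30. They were the only 2 of the 6 above 0. COL3A1 had -0.29, -0.56 and 1.70 in replicates 1, 2 and 4, and COL1A2 -0.12, -0.41 and 0.92. The list median was -0.92, -0.68 and -0.02 in the same order. The collagen COL1A1 and the marker DCN, also named after their values were seen, had -0.48 ± 0.45 and -0.60 ± 0.12. All 7 listed markers had a probe above background in both conditions on at least 1 array, and the mean level of those tested was 8.05 to 8.83 in FID and 9.0 to 9.20 in control. Of 5 tested theca markers, TCF21, a stromal transcription factor named here after its value was seen, was the only one called, with -2.17 ± 0.16, while the steroid enzyme CYP17A1 and the hormone INSL3 had -0.03 and 0.03. Blood and immune markers had a median of 0.28 over 6 tested genes, all 6 above 0, with 0 called. The replicate block fit called 1 of the 6 as higher, against the same 20.7%. PTPRC, the leukocyte surface protein, had 0.29 ± 0.38 and CD68, a macrophage protein, 1.15 ± 0.57, and 3 of the 8 listed were above background on no control array. Endothelial markers had a median of 0.20 over 5, with VWF at 0.28 ± 0.13 and PECAM1 not tested. The part of other cells in the ratios of INHBB, AMH, FST, FSTL3 and ACVR1B was not tested.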

How the data were processed

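RNA of FID and control cumulus cells was hybridised together on 6 two-colour arrays. The deposited scanner files hold raw intensity and local background intensity per spot at 532 nm (Cy3) and 635 nm (Cy5), with nothing subtracted, per the file headers. Processed log2 ratios were deposited as well, in both a per-array and a series form whose values were identical (largest difference 0). How these were normalized is not given in the sources used here. Read as Cy5 over Cy3, their correlation with the present ratios was 0.994 to 0.998, with medians of -0.0185 to -0.00285, which settles scale and direction but not how they were centred. They served as an alternative.

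Of 45220 spots, 1418 control spots and 8 without an identifier were left out, and 13 to 88 spots per array marked as to be ignored were removed before the background fit. An earlier run on these data kept them in that fit and called no probe, so this choice was made with results known. Pixel means were corrected with pixel-median background by normexp (offset 50) and normalized by loess within arrays, with control spots at weight 0, in limma 3.58.1 (R 4.3.3). Signs were turned to FID over control, both arrays of a replicate were averaged, and 32192 probes were tested against 0 with lmFit and eBayes (2 residual and 1.85 prior degrees of freedom). P-values were adjusted by Benjamini-Hochberg over all tested probes, with a threshold of 0.05. Over all of them 246 were called higher and 309 lower, and 201 and 454 with median centring in place of loess. Calls lay at an adjusted p between 0.0476 and the threshold. A gene stands on its tested probe of highest mean signal. Levels were taken after loess and Aquantile scaling. A spot was called saturated when its pixel median reached 65535, which held for 30 to 79 probes per array in Cy5 and 1 to 4 in Cy3.

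The labels state that each replicate was hybridised with exchanged dyes, so arrays of the same number hold the same RNA. Their deviations from the orientation means correlated at 0.702, 0.765 and 0.850 for replicates 1, 2 and 4. The replicate block fit used 1 correlation of 0.606 for all probes.

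Members and lists were chosen with earlier results of these data known. All 10 members were named whatever their values. Pathway genes were named when they passed the test or had the lowest p of their list, and markers as the first 2 of each list with a probe. TCF21, the collagens, DCN and the genes of the closing observations were added after their values were seen. The nearest genes are those with the smallest Euclidean distance over the array ratios. No genome build was given for the probes, so no coordinates are printed.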

Additional observations from a re-analysis of the deposited data

Results flagged for a closer look

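INHBB had a different ratio of FID over control in the arrays with FID in Cy5 and in those with FID in Cy3. The mean log2 ratio was 1.07 in the former and 2.11 in the latter, a difference of -1.04 with an adjusted p of 0.00633 in the replicate block fit. FID was higher than control on all 6 arrays, and averaging the arrays of a replicate gives both orientations equal weight. Groups of 3 arrays or replicates were too small to look for a single array that stood apart.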

How the results depend on the processing

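The number of genes called among the 9 was 0 under 12 of 18 alternatives. It was 1 with only the arrays with FID in Cy5 (AMH) and 2 (INHBB and AMH) with only those with FID in Cy3, with a normexp offset of 16, with a strict filter (FID and control both above the negative controls on 6 of 6 arrays), and with spot intensity by pixel median. In the replicate block fit it was 5, with INHBB, FST, FSTL3, ACVR1B and AMH. Adjusted p ran from 0.00143 to 0.263 for INHBB and from 0.00209 to 0.266 for AMH, and from 0.0113 to 0.270 for FST, 0.00943 to 0.341 for FSTL3 and 0.00791 to 0.251 for ACVR1B. All 5 kept their direction in 18 of 18 alternatives, with ratios of 1.07 to 2.11 for INHBB, 1.38 to 2.03 for AMH, -0.87 to -0.57 for FST, -1.61 to -0.96 for FSTL3 and -1.36 to -0.83 for ACVR1B. As stated above, many of these alternatives could not have reversed the direction. ACVR2B reversed to -0.10 with FID in Cy5 only. Among other named genes, reversals were FSHR -0.016, CYP17A1 0.037 and WBP2 -0.039 with median centring, INSL3 -0.063 with marked spots kept, -0.41 with FID in Cy5 only and -0.16 with pixel medians, and PCSK5 -0.17 and CYP17A1 0.22 with FID in Cy3 only. Leaving out 1 replicate in turn gave ranges across 0, from -0.077 to 0.072 for CYP17A1 (above 0 without replicate 1), -0.014 to 0.35 for CYP19A1 and -0.23 to 0.58 for PTPRC (below 0 without replicate 2), and -0.27 to 0.40 for COL1A2 and -0.42 to 0.71 for COL3A1 (below 0 without replicate 4). PDGFRA, LUM and TCF21 stayed lower, past the threshold in 11, 11 and 10 alternatives. The count over all probes was 1033 with the offset of 16, 972 with the strict filter, 1611 and 2269 with FID in Cy5 only and in Cy3 only, 1523 with pixel medians and 5186 with the replicate block. It was 0 under 7 settings: no background subtraction, marked spots kept in the background fit, the authors' deposited ratios, local background by pixel mean, and leaving out each replicate in turn (0 to 0). These had 4864 to 7477 probes at an unadjusted p under 0.05. The count of pathway genes was 0 under these 7 (0 to 0 without a replicate), so TGFB2 was lost there. The strict filter removed TGFB2 and called 1 other gene, WT1 on its brightest probe, as higher. Pathway genes called numbered 2 with the offset of 16 and with the mean of all probes of a gene, 4 and 8 with FID in Cy5 only and in Cy3 only, 4 with pixel medians and 18 with the replicate block. Pixel means of the background and pixel medians of the spot were added after the data were seen. The cause of these changes was not tested.

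Aquantile scaling leaves ratios unchanged by construction. A slide or scan block was not run, since the file headers used here name no slide or scan. Saturation limits INHBA and INHA, and background limits ACVR2B and AMHR2.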

Other observations

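Several further genes of the lists passed only in the replicate block fit, and they are named here after their values were seen. Among transcription factors of the inhibin and AMH promoters, GATA4 had a log2 ratio of -1.01 ± 0.20 (SE, n = 3, limma's adjusted p = 0.0897, and 0.00834 in the replicate block fit). NR5A2, a nuclear receptor of granulosa cells, had 1.22 ± 0.30 (adjusted p = 0.122 and 0.0162). CREM, a modulator that responds to cyclic AMP, had 0.74 ± 0.15 (adjusted p = 0.0940 and 0.0220). This CREM probe exceeded background in control on 3 of 6 arrays, and 1 other probe of CREM had the opposite sign. SMAD3, which carries the activin signal, had -0.54 ± 0.08 (adjusted p = 0.0677 and 0.0233). Its probe exceeded background in FID on only 3 of 6 arrays, so the FID level lay near the floor.

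The cumulus markers that were lower in that fit were KRT8, a keratin, HAS2, which makes hyaluronan, TNFAIP6, which links the hyaluronan matrix, and GJA1, a gap junction protein. Their ratios were -2.36 ± 0.29, -1.60 ± 0.29, -0.72 ± 0.17 and -1.04 ± 0.22 (SE, n = 3), each negative on 6 of 6 arrays. Over the 3 replicates their adjusted p in limma was 0.0546, 0.0827, 0.116 and 0.0975.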
